A study of Mus musculus with 12 samples.

Results

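The 35 genes described here encode nuclear subunits of respiratory complex I, the NADH dehydrogenase of the mitochondrial inner membrane. They were taken by symbol from a list of such subunits. All 35 were found in the gene table of 17283 genes, and all 35 passed the filter on low values that left 13586 genes for testing. The tissue was mouse medial prefrontal cortex (mPFC), sequenced as 12 RNA libraries. C57, with the genotype given as wild type, was compared with BTBR, with the genotype given only as an inbred strain, a line with few social interactions and much repetitive grooming that is used as a model of autism. Mice of each strain received intraperitoneal injections for 7 days of either DMSO, the solvent control, here called vehicle, or ASIV, which stands for astragaloside IV and is a triterpene glycoside from Astragalus. The question was whether ASIV affects neurotransmission in BTBR, with oxidative phosphorylation named in the title. The groups are C57 vehicle, C57 ASIV, BTBR vehicle and BTBR ASIV, with 3 libraries each. The labels call the 3 libraries of a group parallel samples and do not say whether each is a separate animal, so p-values measure only the spread between these libraries. The labels give no sex, age or dose.

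Complex I takes electrons from NADH in the matrix, passes them through a flavin and a chain of iron-sulfur clusters to ubiquinone, and pumps protons across the inner membrane. It has the shape of an L: a matrix arm carries the electron path and a membrane arm carries the proton pumps. The membrane core is encoded by mitochondrial DNA and the matrix core by nuclear genes. Many small accessory subunits, also nuclear, surround both cores and are needed for assembly and stability. Neurons depend on oxidative phosphorylation for most of their ATP, and faults in its subunits are a known cause of Leigh syndrome, a disease of the brain.

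Levels are FPKM, that is fragments per kilobase of exon scaled to library depth. Each library held between 16166327 and 18660037 fragments, as recovered from the values, and 1 fragment on 1 kb of exon was worth 0.0536 to 0.0619 FPKM. Log2 correlations between libraries of a group ran from 0.971 to 0.992. Markers of excitatory neurons of cortex summed to 405 to 514 FPKM in the other 3 groups and to 309 to 403 in BTBR ASIV, below every other library, with 2 of 5 called lower in BTBR under vehicle and 1 of 5 called lower with ASIV in BTBR. In both comparisons the differences were negative for 3 of these 5 markers and positive for 2. Summed striatal markers varied from 11.5 to 150.5 FPKM between libraries, with none of 4 called. Summed neuronal markers (Rbfox3, Snap25, Syt1, Map2) lay between 566 and 638 FPKM in C57 under vehicle and between 367 and 451 in BTBR under vehicle, with 1 of 4 called lower. With ASIV these sums were 529 to 679 FPKM in C57 and 423 to 491 in BTBR, with 0 of 4 called between the strains. Summed endothelial markers (Cldn5, Pecam1, Flt1) lay between 64.4 and 74.2 FPKM in C57 vehicle and between 90.7 and 118 in BTBR vehicle, with 1 of 3 called higher. In BTBR ASIV they lay between 51.8 and 72.5, with 1 of 3 called lower against BTBR vehicle. The other 2 endothelial markers had positive differences with ASIV in BTBR (up to 0.30 log2 units) that were not called. Under vehicle, 2 endothelial markers had a positive difference and 1 a negative one. Of 4 microglial markers 2 were called lower under vehicle and 2 higher with ASIV in BTBR. The 2 not called under vehicle had positive differences (up to 0.34), and with ASIV in BTBR 3 were positive and 1 negative. The part of these shifts in the results below was not tested, and in whole tissue fewer cells of a type and less RNA per cell cannot be told apart.

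Under vehicle, most subunit genes differed between the strains, and they did so in both directions. In BTBR vehicle, 14 of the 35 were higher than in C57 vehicle and 17 were lower, while 4 did not pass the test (limma on log2(FPKM + 1), Benjamini-Hochberg over all genes, adjusted p under 0.05). Over all genes tested the background was 22.3% called higher and 20.8% called lower, 43.1% together, against 88.6% of the subunits. Among the 8235 genes with FPKM of at least 5 the background was 52.2%. The median absolute log2 difference of the subunits was 0.60, against 0.29 over all genes, and their median signed difference was -0.15, against 0.01. The largest differences from C57 were those of Ndufa3, Ndufa1 and Ndufb4 on the lower side (-1.72, -1.40 and -1.24 log2 units) and those of Ndufc2, Ndufa2 and Ndufa5 on the higher side (1.14, 0.99 and 0.73). For 31 of 35 subunits the 3 BTBR vehicle libraries lay entirely above (14) or below (17) the 3 C57 vehicle libraries, against 53.3% of all genes with no overlap. Ndufa9, Ndufab1, Ndufs1 and Ndufv3 were the exceptions.

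**Figure D1:**
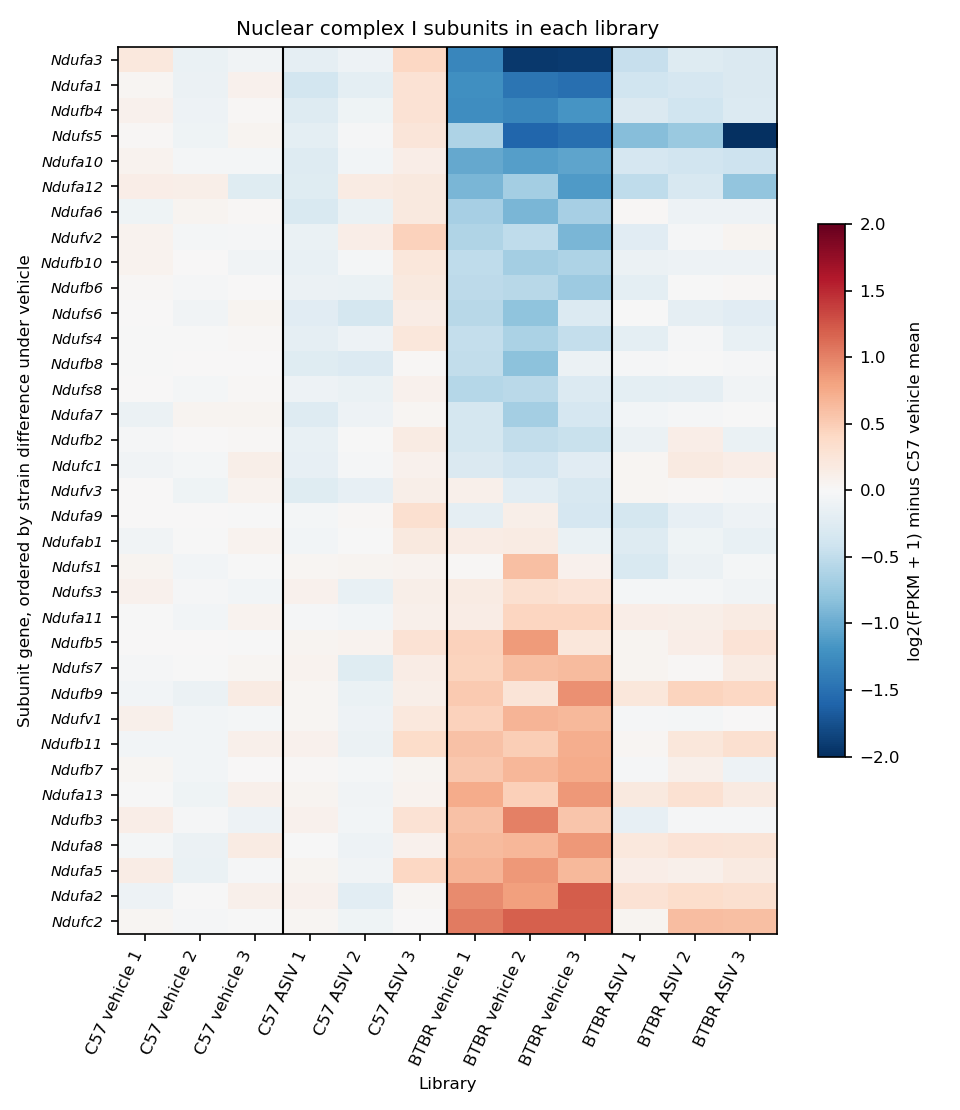
Each cell is the log2(FPKM + 1) of a subunit gene in 1 library minus the mean of the 3 C57 vehicle libraries, with genes ordered by the strain difference under vehicle. The C57 columns are pale, the 3 BTBR vehicle columns run from blue (Ndufa3 at the top) to red (Ndufc2 at the bottom), and the BTBR ASIV columns are paler for most genes, with Ndufs5 still dark blue in replicate 3.

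Within BTBR, ASIV moved subunit genes in both directions as well. Compared with BTBR vehicle, 14 of 35 were higher in BTBR ASIV and 12 were lower, with 9 not called (limma, adjusted p under 0.05), where the background was 13.7% called higher and 15.4% called lower. Among genes with FPKM of at least 5 the background for both directions was 38.1%, against 74.3% of the subunits. Ndufa3, Ndufa1 and Ndufb4 rose most, by 1.38, 1.06 and 0.92 log2 units, and Ndufb3, Ndufc2 and Ndufa2 fell by 0.78, 0.71 and 0.67. The BTBR ASIV libraries lay entirely above the BTBR vehicle libraries for 15 subunits and entirely below for 12, that is 27 of 35, against 39.1% of all genes. This comparison and the strain comparison under vehicle share the 3 BTBR vehicle libraries, so the values of both are given side by side below and no share of opposite signs is read from them.

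**Figure D2:**
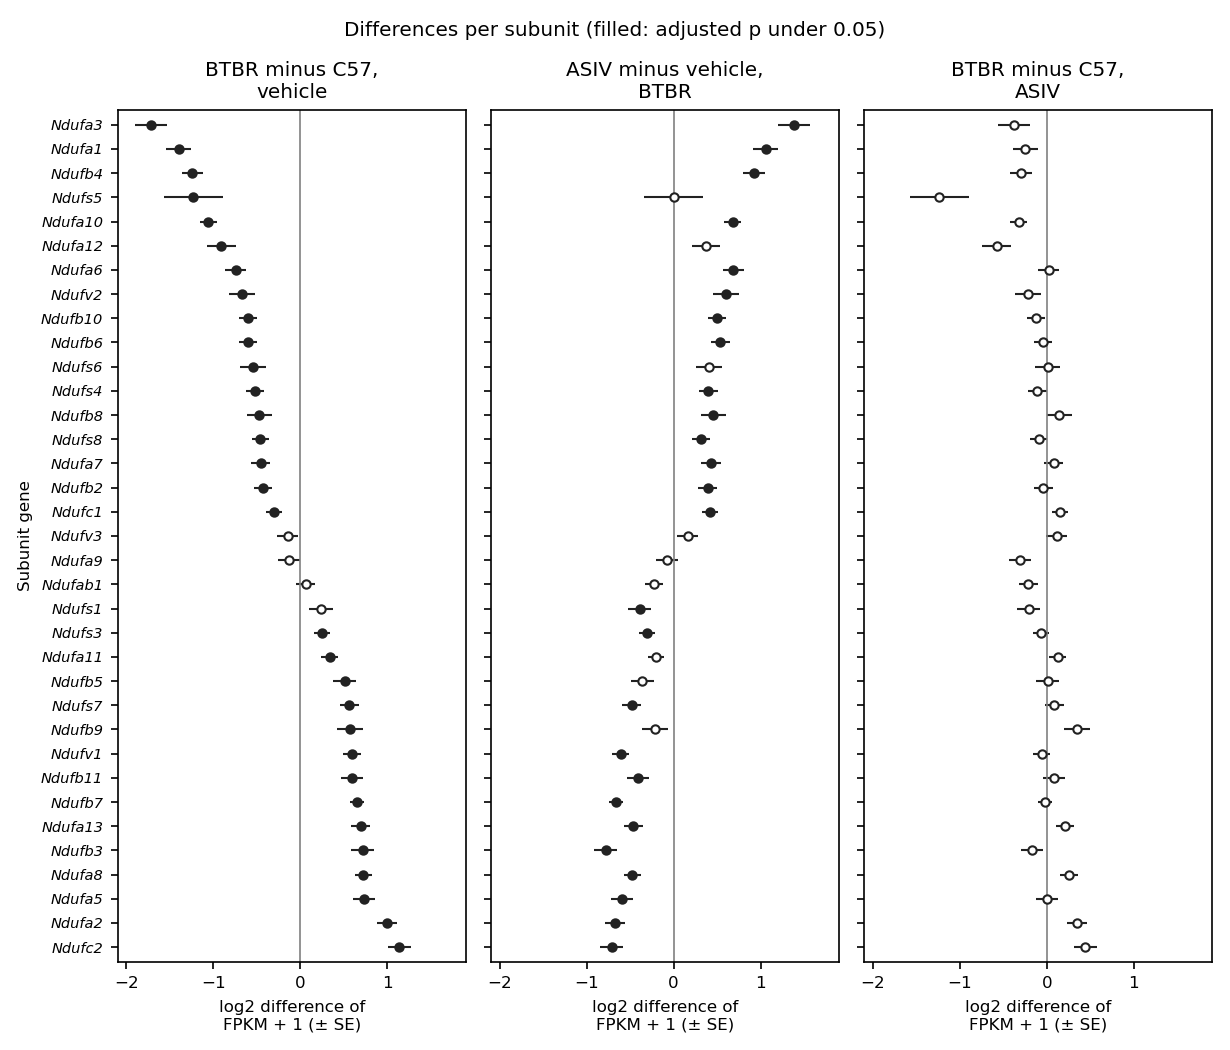
Log2 difference of FPKM + 1 with its standard error for each of the 35 subunits, in the order of the strain difference under vehicle, for BTBR minus C57 under vehicle, ASIV minus vehicle in BTBR, and BTBR minus C57 under ASIV (filled points have an adjusted p under 0.05). Filled points number 31, 26 and 0 in the 3 panels, and the first 2 panels share the BTBR vehicle libraries.

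The start regions of the genes that moved most are shown so that a reader can compare the 2 directions. Of the 35 subunits, 32 matched a RefSeq promoter (GRCm38.p6), and Ndufa2, Ndufb9 and Ndufs1 did not. Each printed sequence runs 5′ to 3′ from 250 bases before to 30 bases after the RefSeq start, with capitals for exact matches, on either strand, to the short motifs of 6 factors that are spelled out after the sequences (NRF1, ETS, SP1, YY1, ERR and the TATA box). No matches overlapped in these sequences. The first 3 genes were lower in BTBR vehicle, the next 3 higher, and Ndufs5 is shown because its level stayed low under ASIV. They lie at chr7:3617123-3617402 (Ndufa3, plus strand), chrX:37191209-37191488 (Ndufa1, minus), chr16:37654339-37654618 (Ndufb4, minus), chr7:97399753-97400032 (Ndufc2, plus), chr6:24527661-24527940 (Ndufa5, minus), chr2:36049309-36049588 (Ndufa8, minus) and chr4:123718157-123718436 (Ndufs5, minus).
Ndufa3: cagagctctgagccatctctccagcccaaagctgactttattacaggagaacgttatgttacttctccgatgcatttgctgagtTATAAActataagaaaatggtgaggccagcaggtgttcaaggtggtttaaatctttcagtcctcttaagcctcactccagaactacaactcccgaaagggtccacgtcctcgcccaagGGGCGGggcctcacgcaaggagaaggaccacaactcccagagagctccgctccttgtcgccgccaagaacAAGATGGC
Ndufa1: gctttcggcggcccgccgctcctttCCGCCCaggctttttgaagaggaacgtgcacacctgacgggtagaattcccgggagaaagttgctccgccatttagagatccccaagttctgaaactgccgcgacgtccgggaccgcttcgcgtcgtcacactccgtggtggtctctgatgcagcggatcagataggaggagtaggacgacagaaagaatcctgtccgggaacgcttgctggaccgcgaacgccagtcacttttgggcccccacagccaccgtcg
Ndufb4: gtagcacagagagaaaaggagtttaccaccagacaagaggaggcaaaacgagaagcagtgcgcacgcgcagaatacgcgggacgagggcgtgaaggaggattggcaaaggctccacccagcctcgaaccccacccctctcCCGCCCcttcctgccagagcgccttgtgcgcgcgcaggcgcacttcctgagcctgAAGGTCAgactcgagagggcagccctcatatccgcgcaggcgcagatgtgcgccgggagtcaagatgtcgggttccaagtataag
Ndufc2: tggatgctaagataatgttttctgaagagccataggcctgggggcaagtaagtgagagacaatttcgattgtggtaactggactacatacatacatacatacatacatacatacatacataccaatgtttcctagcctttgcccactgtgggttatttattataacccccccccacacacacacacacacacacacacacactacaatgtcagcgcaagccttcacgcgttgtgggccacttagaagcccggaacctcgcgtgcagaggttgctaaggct
Ndufa5: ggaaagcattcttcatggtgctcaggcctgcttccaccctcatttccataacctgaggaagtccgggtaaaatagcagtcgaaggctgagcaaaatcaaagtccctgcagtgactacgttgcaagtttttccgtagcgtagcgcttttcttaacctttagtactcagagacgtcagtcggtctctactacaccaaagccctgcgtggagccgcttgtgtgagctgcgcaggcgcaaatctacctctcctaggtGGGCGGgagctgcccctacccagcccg
Ndufa8: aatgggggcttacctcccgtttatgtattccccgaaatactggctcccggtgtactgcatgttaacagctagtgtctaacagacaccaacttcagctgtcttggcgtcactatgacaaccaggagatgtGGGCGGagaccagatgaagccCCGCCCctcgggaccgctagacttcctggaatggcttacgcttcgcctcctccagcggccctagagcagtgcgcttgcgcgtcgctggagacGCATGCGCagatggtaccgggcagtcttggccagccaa
Ndufs5: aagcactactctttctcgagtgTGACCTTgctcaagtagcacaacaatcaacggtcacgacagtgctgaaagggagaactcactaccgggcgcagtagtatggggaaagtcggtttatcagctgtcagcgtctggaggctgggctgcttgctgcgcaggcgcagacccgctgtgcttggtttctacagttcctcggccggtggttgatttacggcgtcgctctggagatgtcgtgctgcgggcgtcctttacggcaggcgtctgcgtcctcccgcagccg

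In these sequences, Ndufa3 holds a YY1 match that begins 23 bases after the start, besides an SP1 and a TATA match upstream. Ndufb4 and Ndufs5 each hold an ERR match, and Ndufa8 holds an NRF1 match that begins 8 bases before the start and 2 SP1 matches. Ndufc2 holds none of the 6 motifs. Over full windows of 300 bases, the YY1 letters, AAGATGGC, occurred in 7 of 32 subunit promoters (21.9%), against 2.75% of 32851 promoters. Those 7 were Ndufa3, Ndufb8, Ndufc1, Ndufs4 and Ndufs6, all lower in BTBR vehicle, Ndufs7, which was higher, and Ndufa9, which was not called. The ERR letters, AAGGTCA, occurred in 3 of 32 (9.38% against 4.72%), all of them among the 17 subunits called lower (Ndufb2, Ndufb4, Ndufs5) and none among the 12 called higher with a promoter. The NRF1 letters, GCATGCGC, were found in 3 subunit promoters (9.38% against 2.71%). The ETS letters, CCGGAAG, were found in 4 (12.5% against 8.86%). The SP1 letters, GGGCGG, were the most common, in 15 (46.9% against 35.7%). The TATA box letters, TATAAA, were found in 4 (12.5% against 13.6%). Among the 12 subunits called higher, NRF1 letters were in 2, ETS in 2, SP1 in 4 and TATA in 2. Among the 17 called lower they were in 1, 2, 9 and 2. The set of 32851 promoters can hold several starts of a gene, while each subunit entered with 1 start. Median GC of the subunit promoters was 59.0%, against 52.7% of all promoters, with 57.3% for subunits called higher and 59.0% for those called lower. A match is a description of letters and not a binding site.

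Among the 6 core subunits of the matrix arm, which carry the flavin and the iron-sulfur clusters, 3 were higher in BTBR vehicle, 2 were lower and 1 was not called, and with ASIV in BTBR 2 were higher and 4 lower. Of all genes tested, 43.1% were called under vehicle and 29.1% with ASIV in BTBR. Ndufv1 binds NADH and the flavin. Its FPKM was 63.1, 56.8 and 57.4 with vehicle and 60.4, 54.8 and 68.2 with ASIV in C57, and 81.2, 95.6 and 92.7 with vehicle and 58.3, 57.5 and 59.5 with ASIV in BTBR. The 3 BTBR vehicle libraries are the highest of the 12, and the BTBR ASIV libraries fall within the C57 range. Ndufv1 was 0.59 ± 0.10 (SE) log2 units higher in BTBR under vehicle (limma adjusted p = 0.00056) and fell by 0.61 ± 0.10 with ASIV in BTBR (adjusted p = 0.00097). Ndufv2, its iron-sulfur partner in the NADH-oxidising tip, had FPKM of 36.8, 34.1 and 34.4 with vehicle and 31.9, 38.4 and 48.6 with ASIV in C57, and 22.9, 24.4 and 18.2 with vehicle and 29.8, 34.4 and 36.4 with ASIV in BTBR. Here the BTBR vehicle libraries are the lowest of the 12. Ndufv2 was 0.67 ± 0.15 log2 units below C57 under vehicle (a difference of -0.67, adjusted p = 0.0031) and rose by 0.60 ± 0.15 with ASIV in BTBR (adjusted p = 0.0090). The 2 subunits of the same tip therefore differed from C57 in opposite directions.

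Of the core subunits nearer ubiquinone, Ndufs7, which holds the last iron-sulfur cluster, had FPKM of 56.1, 56.7 and 59.2 with vehicle and 60.2, 48.2 and 63.7 with ASIV in C57, and 78.7, 87.1 and 89.8 with vehicle and 59.8, 58.0 and 64.2 with ASIV in BTBR. Again the BTBR vehicle libraries stand above all others. The differences were 0.56 ± 0.11 (adjusted p = 0.0012) under vehicle and -0.48 ± 0.11 (adjusted p = 0.0054) for ASIV in BTBR. Ndufs8, a further iron-sulfur protein of that region, was at 61.4 to 63.7 FPKM in C57 given vehicle, 42.0 to 51.6 in BTBR given vehicle and 55.0 to 60.0 in BTBR ASIV. It was lower under vehicle by -0.46 ± 0.10 (adjusted p = 0.0028) and higher with ASIV in BTBR by 0.32 ± 0.10 (adjusted p = 0.031), a call lost without any BTBR library but vehicle replicate 3 (adjusted p from 0.0533 to 0.10). Ndufs3 was called in both comparisons with the smallest shifts of any called subunit (0.25 ± 0.09, adjusted p = 0.041, and -0.30 ± 0.09, adjusted p = 0.026). Its strain call was lost without any 1 of the C57 vehicle or BTBR ASIV libraries or BTBR vehicle replicate 2 or 3 (adjusted p from 0.052 to 0.126), and its ASIV call without any BTBR library but vehicle replicate 1 (0.0575 to 0.0688). With TPM computed without mitochondrial genes, an alternative scaling, the differences were 0.12 (adjusted p = 0.315) and -0.15 (adjusted p = 0.233), and the strain call was also lost under quantile normalization (0.18, adjusted p = 0.0846) and when FPKM was rescaled without mitochondrial genes (0.19, adjusted p = 0.109). Ndufs1, the largest nuclear subunit, was not called between the strains (0.24 ± 0.13, adjusted p = 0.17) and was called lower with ASIV in BTBR (-0.39 ± 0.13, adjusted p = 0.043). BTBR vehicle replicate 2 held 21.4 FPKM of Ndufs1 and the other 11 libraries 11.0 to 14.7, and without that library the ASIV difference was -0.21 (adjusted p = 0.12). Leaving out any other library except BTBR vehicle replicate 1 or 3 also ended the call (adjusted p from 0.0513 to 0.14), as did TPM without mitochondrial genes (-0.24, adjusted p = 0.189).

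The 9 accessory subunits of the matrix arm divided into 2 higher (Ndufa2, Ndufa5), 5 lower (Ndufa12, Ndufa6, Ndufs6, Ndufs4, Ndufa7) and 2 not called under vehicle, and into 3 higher, 2 lower and 4 not called with ASIV in BTBR. The called share of all genes was 43.1% under vehicle and 29.1% with ASIV in BTBR. Ndufa2, a small protein with a thioredoxin-like fold, had FPKM of 101, 107 and 116 with vehicle and 114, 92.7 and 111 with ASIV in C57, and 209, 190.4 and 249.8 with vehicle and 131, 137 and 135 with ASIV in BTBR. The BTBR ASIV libraries lie between BTBR vehicle and all C57 libraries with no overlap on either side. The differences were 0.99 ± 0.12 (adjusted p = 4.7e-05) and -0.67 ± 0.12 (adjusted p = 0.0013). Ndufa5, which sits beside the ubiquinone module, had FPKM of 53.9, 44.3 and 47.8 with vehicle and 50.6, 46.0 and 65.2 with ASIV in C57, and 78.1, 89.0 and 76.8 with vehicle and 53.0, 51.9 and 55.1 with ASIV in BTBR. All 3 BTBR ASIV libraries lie within the C57 range. Its differences were 0.73 ± 0.12 (adjusted p = 0.00062) and -0.60 ± 0.12 (adjusted p = 0.0039).

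Ndufa6, a protein of the LYR family that docks the acyl carrier on the matrix arm, had FPKM of 27.1, 29.7 and 29.3 with vehicle and 23.0, 26.0 and 32.9 with ASIV in C57, and 17.8, 14.8 and 17.7 with vehicle and 29.2, 26.5 and 26.8 with ASIV in BTBR. The BTBR vehicle libraries are the lowest and the BTBR ASIV libraries are inside the C57 range. Its differences were -0.75 ± 0.12 (adjusted p = 0.000465) under vehicle and 0.69 ± 0.12 (adjusted p = 0.0015) for ASIV in BTBR. Ndufs4, whose loss in mice causes a Leigh-like brain disease, was at 14.4 to 14.8 FPKM in C57 given vehicle, 9.06 to 10.3 in BTBR given vehicle and 12.6 to 14.3 in BTBR ASIV. It was lower by -0.52 ± 0.11 (adjusted p = 0.0019) and rose by 0.40 ± 0.11 (adjusted p = 0.014, and 0.35 with adjusted p = 0.054 without BTBR ASIV replicate 2). Ndufs6, a zinc-binding subunit, was lower under vehicle (-0.54 ± 0.15, adjusted p = 0.0099), and its ASIV difference of 0.41 ± 0.15 did not pass (adjusted p = 0.053). Ndufa7, another small subunit of this arm, had FPKM of 24.7, 28.0 and 28.0 with vehicle and 22.3, 25.1 and 27.5 with ASIV in C57, and 20.8, 16.3 and 21.1 with vehicle and 25.7, 26.5 and 26.8 with ASIV in BTBR. Its BTBR vehicle libraries are the lowest of the 12, and the BTBR ASIV libraries lie within the C57 range. For Ndufa7 the differences were -0.46 ± 0.11 (adjusted p = 0.0055) and 0.43 ± 0.11 (adjusted p = 0.012).

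Ndufa12, which joins the tip to the ubiquinone module, had FPKM of 12.5, 12.4 and 9.49 with vehicle and 9.47, 12.9 and 13.2 with ASIV in C57, and 5.56, 6.75 and 4.65 with vehicle and 7.71, 8.94 and 6.20 with ASIV in BTBR. All 6 BTBR libraries lie below all 6 C57 libraries. Its strain difference was -0.91 ± 0.16 (adjusted p = 0.0009), and the ASIV difference in BTBR of 0.37 ± 0.16 did not pass (adjusted p = 0.11). A processed pseudogene, Gm15920, matches 71.0% of the Ndufa12 transcript at 99.5% identity, and reads of the pair cannot be kept apart with certainty. Gm15920 is in the table at a mean of 52.7 FPKM, was lower in BTBR vehicle (-1.33 ± 0.39, adjusted p = 0.018) and was higher with ASIV in BTBR (1.63 ± 0.39, adjusted p = 0.0099), so the value of Ndufa12 is uncertain. Ndufa9, an NADPH-binding subunit of a dehydrogenase family, and Ndufv3, a small subunit of the tip, were not called (-0.13 ± 0.13 and -0.15 ± 0.12 under vehicle, -0.07 and 0.16 for ASIV in BTBR).

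All 9 accessory subunits of the proximal membrane arm, the part next to the matrix arm, were called under vehicle: 4 higher (Ndufc2, Ndufa8, Ndufa13, Ndufa11) and 5 lower (Ndufa3, Ndufa1, Ndufs5, Ndufa10, Ndufc1). With ASIV in BTBR 4 were higher, 3 lower and 2 not called. The shares over all genes tested were 43.1% under vehicle and 29.1% with ASIV in BTBR (52.2% and 38.1% at FPKM of at least 5). Ndufa3, a short protein with 1 membrane helix at chr7:3617373-3620327 in mm10, had FPKM of 43.9, 34.3 and 36.0 with vehicle and 33.2, 35.1 and 50.5 with ASIV in C57, and 14.7, 9.22 and 9.26 with vehicle and 27.2, 31.5 and 30.9 with ASIV in BTBR. The BTBR ASIV libraries lie above BTBR vehicle and below all 6 C57 libraries. Ndufa3 was -1.72 ± 0.19 log2 units from C57 under vehicle (adjusted p = 3.2e-05), the largest difference among the 35 subunits, and rose by 1.38 ± 0.19 with ASIV in BTBR (adjusted p = 0.00034). Ndufa1, another short single-helix subunit, encoded on the X chromosome (chrX:37187588-37191163), had FPKM of 78.5, 70.3 and 80.7 with vehicle and 59.0, 66.8 and 93.1 with ASIV in C57, and 32.2, 27.0 and 26.3 with vehicle and 57.6, 60.5 and 62.6 with ASIV in BTBR. Its 3 BTBR vehicle libraries are lower than all others. The differences were -1.40 ± 0.14 (adjusted p = 2.3e-05) and 1.06 ± 0.14 (adjusted p = 0.00036).

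Ndufa10, a matrix-facing subunit with a nucleoside kinase fold, had FPKM of 33.8, 31.4 and 31.5 with vehicle and 26.7, 31.0 and 35.6 with ASIV in C57, and 15.3, 14.4 and 15.0 with vehicle and 25.2, 24.4 and 23.9 with ASIV in BTBR. Its BTBR ASIV libraries lie between the other BTBR libraries and all C57 libraries. The differences were -1.06 ± 0.10 (adjusted p = 1.1e-05) and 0.68 ± 0.10 (adjusted p = 0.00048). Ndufc2, a membrane subunit of the same arm at chr7:97400003-97407802, had FPKM of 74.1, 71.1 and 72.0 with vehicle and 74.1, 68.3 and 73.0 with ASIV in C57, and 149, 167 and 166 with vehicle and 75.6, 112 and 111 with ASIV in BTBR. The C57 libraries lie close together, BTBR vehicle lies far above them, and BTBR ASIV replicate 1 lies just above the C57 range while the other 2 libraries of its group lie between. The differences were 1.14 ± 0.13 (adjusted p = 4.4e-05) and -0.71 ± 0.13 (adjusted p = 0.0019).

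Ndufa8 and Ndufs5 both belong to the twin-cysteine proteins that face the intermembrane space, and their values went apart. Ndufa8 had FPKM of 93.4, 88.02 and 107 with vehicle and 94.9, 89.1 and 102 with ASIV in C57, and 149, 153 and 175 with vehicle and 111, 116 and 114 with ASIV in BTBR. It was higher under vehicle by 0.72 ± 0.10 (adjusted p = 0.00015) and fell by 0.47 ± 0.10 with ASIV in BTBR (adjusted p = 0.0041). Ndufs5 had FPKM of 71.8, 66.4 and 73.5 with vehicle and 61.2, 69.5 and 83.6 with ASIV in C57, and 45.6, 22.9 and 24.2 with vehicle and 38.6, 41.7 and 15.7 with ASIV in BTBR. All 6 BTBR libraries lie below all 6 C57 libraries, and the BTBR libraries scatter widely within each treatment. The strain difference of Ndufs5 was -1.23 ± 0.34 under vehicle (adjusted p = 0.013, but 0.052 and 0.054 without BTBR vehicle replicate 2 or 3, where the difference was -1.06 and -1.10), and the ASIV difference in BTBR was 0.00 ± 0.34 (adjusted p = 1.00).

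The other 3 proximal subunits had smaller differences between the strains under vehicle. Ndufa13, also known as GRIM-19, had FPKM of 70.3, 66.9 and 76.2 with vehicle and 73.7, 67.8 and 74.8 with ASIV in C57, and 119, 98.8 and 131 with vehicle and 81.7, 88.05 and 80.7 with ASIV in BTBR. Its BTBR ASIV libraries lie between all C57 libraries and BTBR vehicle. It was higher under vehicle by 0.69 ± 0.11 (adjusted p = 0.00032) and fell by 0.46 ± 0.11 with ASIV in BTBR (adjusted p = 0.0069). Exons of Tssk6, a gene on the opposite strand, overlap 375 bases of its exons. Ndufa11, which lies where complex I meets complex III, was higher under vehicle (0.34 ± 0.10, adjusted p = 0.013) with an ASIV difference of -0.20 that did not pass (adjusted p = 0.13), and its strain call was lost without C57 vehicle replicate 2 (0.31, adjusted p = 0.056) and with TPM without mitochondrial genes (0.20, adjusted p = 0.0791). Ndufc1, a short membrane subunit, had FPKM of 20.6, 20.99 and 23.5 with vehicle and 19.2, 21.4 and 23.0 with ASIV in C57, and 17.5, 16.3 and 18.5 with vehicle and 22.4, 24.5 and 23.8 with ASIV in BTBR, and its BTBR vehicle libraries are the lowest of the 12. For Ndufc1 the differences were -0.30 ± 0.09 (adjusted p = 0.019) and 0.41 ± 0.09 (adjusted p = 0.0054). The strain call of Ndufc1 was lost without C57 vehicle replicate 3 (-0.25, adjusted p = 0.084) or BTBR vehicle replicate 2 (-0.26, adjusted p = 0.052).

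**Figure D3:**
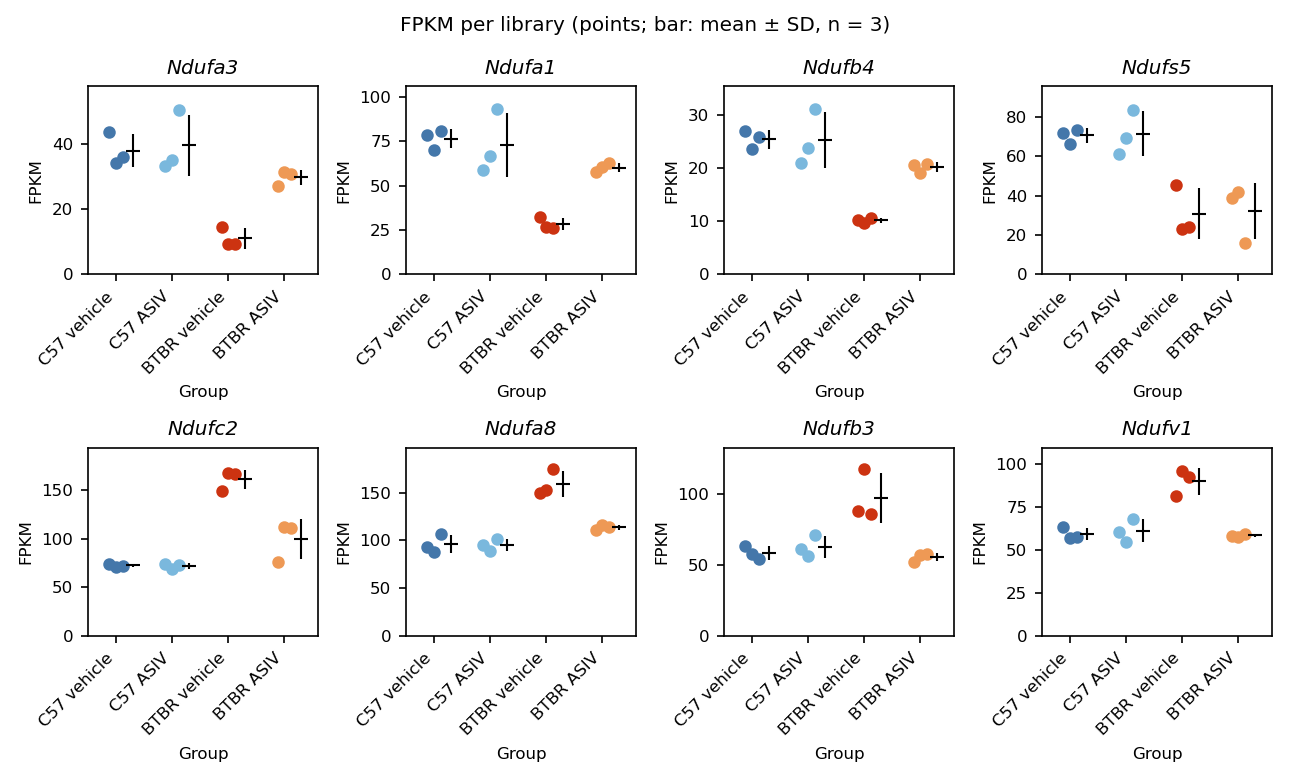
FPKM in each of the 12 libraries (points) with the group mean and SD (n = 3) for 8 subunits, each axis starting at 0. Ndufa3, Ndufa1 and Ndufb4 were lowest in BTBR vehicle, Ndufc2, Ndufa8, Ndufb3 and Ndufv1 were highest there, and Ndufs5 stayed below C57 in all 6 BTBR libraries.

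All 10 accessory subunits of the distal membrane arm, the far end of the proton pumps, were also called under vehicle, 5 higher (Ndufb3, Ndufb7, Ndufb11, Ndufb9, Ndufb5) and 5 lower (Ndufb4, Ndufb10, Ndufb6, Ndufb8, Ndufb2). With ASIV in BTBR 5 were higher, 3 lower and 2 not called. Over all genes tested, 43.1% were called under vehicle and 29.1% with ASIV in BTBR (52.2% and 38.1% at FPKM of at least 5). Ndufb4, a membrane subunit of this end at chr16:37647170-37654453, had FPKM of 26.9, 23.5 and 25.8 with vehicle and 20.9, 23.8 and 31.1 with ASIV in C57, and 10.2, 9.62 and 10.6 with vehicle and 20.6, 19.0 and 20.8 with ASIV in BTBR. The BTBR ASIV libraries lie just under the lowest C57 library. The differences were -1.24 ± 0.12 (adjusted p = 1.6e-05) and 0.92 ± 0.12 (adjusted p = 0.0003). Ndufb3, a further membrane subunit, had FPKM of 63.4, 57.4 and 53.8 with vehicle and 61.4, 55.9 and 71.0 with ASIV in C57, and 88.1, 117 and 85.8 with vehicle and 52.0, 57.2 and 57.4 with ASIV in BTBR. All 3 BTBR vehicle libraries stand above the other 9. The differences were 0.72 ± 0.13 (adjusted p = 0.0009) and -0.78 ± 0.13 (adjusted p = 0.001), the latter the largest fall with ASIV among the subunits.

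Ndufb7 and Ndufb10, twin-cysteine proteins on the intermembrane side of the distal arm, also differed in opposite directions. Ndufb7 had FPKM of 11.6, 10.9 and 11.4 with vehicle and 11.4, 11.0 and 11.7 with ASIV in C57, and 16.8, 18.6 and 19.6 with vehicle and 11.0, 12.1 and 10.5 with ASIV in BTBR, with differences of 0.65 ± 0.08 (adjusted p = 9.9e-05) and -0.66 ± 0.08 (adjusted p = 0.00026). Ndufb10 had FPKM of 66.3, 63.1 and 59.9 with vehicle and 57.04, 61.3 and 74.3 with ASIV in C57, and 43.9, 39.1 and 40.7 with vehicle and 58.1, 59.0 and 58.6 with ASIV in BTBR, with differences of -0.60 ± 0.10 (adjusted p = 0.00054) and 0.50 ± 0.10 (adjusted p = 0.0032). In both genes the BTBR vehicle libraries do not overlap any other library. Ndufb6, a membrane subunit, had FPKM of 59.9, 57.9 and 59.1 with vehicle and 54.1, 53.9 and 67.6 with ASIV in C57, and 40.8, 39.8 and 35.2 with vehicle and 51.1, 58.9 and 59.6 with ASIV in BTBR. Its BTBR vehicle libraries are the lowest of the 12. The differences of Ndufb6 were -0.60 ± 0.11 (adjusted p = 0.00081) and 0.54 ± 0.11 (adjusted p = 0.0029). Exons of Smim27 on the opposite strand cover 39.0% of its exon length.

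Ndufb11, encoded on the X chromosome, had FPKM of 81.1, 80.4 and 90.4 with vehicle and 88.9, 77.6 and 109 with ASIV in C57, and 126, 118 and 139 with vehicle and 86.0, 97.8 and 105 with ASIV in BTBR. The BTBR vehicle libraries are the highest of the 12, and the BTBR ASIV libraries lie within the C57 range. Ndufb11 was higher under vehicle (0.60 ± 0.13, adjusted p = 0.0025) and fell by 0.40 ± 0.13 with ASIV in BTBR (adjusted p = 0.030). That ASIV call was lost without BTBR vehicle replicate 1 or 3 or BTBR ASIV replicate 1 or 2 (adjusted p = 0.055, 0.093, 0.11 and 0.061), when FPKM was rescaled without mitochondrial genes (-0.36, adjusted p = 0.0524) and with TPM without mitochondrial genes (-0.25, adjusted p = 0.104). Ndufb9, an LYR protein of the distal arm, had FPKM of 46.5, 44.5 and 54.1 with vehicle and 49.3, 44.1 and 52.5 with ASIV in C57, and 69.8, 58.0 and 92.2 with vehicle and 56.5, 65.7 and 64.4 with ASIV in BTBR. All 6 BTBR libraries lie above all 6 C57 libraries, and exons of Gm49356 on the same strand cover 19.5% of its exon length. Ndufb9 and Ndufb5 were higher under vehicle (0.57 ± 0.15, adjusted p = 0.0082, and 0.51 ± 0.13, adjusted p = 0.0085), and their ASIV differences of -0.21 and -0.36 did not pass (adjusted p = 0.31 and 0.061). Ndufb2 was lower under vehicle and higher with ASIV (-0.43 ± 0.10, adjusted p = 0.0059, and 0.39 ± 0.10, adjusted p = 0.015), at 1.79 to 3.37 FPKM over all 12 libraries, and without BTBR ASIV replicate 2 the latter was 0.31 (adjusted p = 0.063). By voom on recovered fragments it was 0.60 (adjusted p = 0.00649). Ndufb8 had FPKM of 22.3, 22.5 and 22.4 with vehicle and 18.9, 18.3 and 22.8 with ASIV in C57, and 15.7, 12.2 and 20.6 with vehicle and 22.0, 22.3 and 22.1 with ASIV in BTBR. The BTBR vehicle libraries lie below C57 vehicle and BTBR ASIV but overlap C57 ASIV. Its differences were -0.47 ± 0.14 (adjusted p = 0.019) and 0.46 ± 0.14 (adjusted p = 0.032). Without BTBR vehicle replicate 2, the library at 12.2, they were -0.30 (adjusted p = 0.0596) and 0.28 (adjusted p = 0.097). The strain call was also lost without C57 vehicle replicate 2 (adjusted p = 0.0516), and the ASIV call without BTBR vehicle replicate 1 or any BTBR ASIV library (0.0653 to 0.0723). Ndufab1, the acyl carrier protein found in both arms and also used in mitochondrial lipid synthesis, was at 3.10 to 4.67 FPKM over all 12 libraries and was not called (0.06 ± 0.11 under vehicle, -0.23 ± 0.11 for ASIV in BTBR).

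Once both strains had received ASIV, no subunit was called between them. The count was 0 of 35 higher and 0 of 35 lower (limma, adjusted p under 0.05), where the background was 1.31% and 1.22%. With voom on recovered fragments it was also 0 and 0. In the main limma fit, 9 of 35 subunits had an unadjusted p under 0.05, against 2614 of 13586 genes. Differences ran from -1.24 to 0.44 log2 units, with a median absolute value of 0.15 against 0.14 over all genes. Ndufs5 (-1.24 ± 0.34, adjusted p = 0.086) and Ndufa12 (-0.58 ± 0.16, adjusted p = 0.088) came nearest to a call, followed by Ndufc2 (0.44 ± 0.13, adjusted p = 0.10) and Ndufa10 (-0.32 ± 0.10, adjusted p = 0.11). Ndufc2 was called without BTBR ASIV replicate 1 (0.62, adjusted p = 0.0084), and Ndufa10 and Ndufa12 were called without C57 ASIV replicate 1 (-0.43, adjusted p = 0.042, and -0.72, adjusted p = 0.049). The groups did not overlap for 14 of 35 subunits, 6 above and 8 below, against 26.2% of all genes. A missed threshold does not show that the levels are equal.

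Set against all 6 C57 libraries, 28 of 35 subunits had no BTBR vehicle library within the C57 range, and the same was true of 46.5% of all genes. In BTBR ASIV, 12 subunits had all 3 libraries within the C57 range, against 20.9% of all genes, and 13 had none within it, against 19.6%. The 12 were Ndufa5, Ndufa6, Ndufa7, Ndufb10, Ndufb11, Ndufb2, Ndufb5, Ndufb8, Ndufs3, Ndufs6, Ndufv1 and Ndufv3. The 13 were Ndufa10, Ndufa11, Ndufa12, Ndufa13, Ndufa2, Ndufa3, Ndufa8, Ndufa9, Ndufab1, Ndufb4, Ndufb9, Ndufc2 and Ndufs5, which hold 7 of the 9 proximal subunits.

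In C57 mice, no subunit was called between ASIV and vehicle. The count was 0 of 35 in either direction by limma and by voom, 0 had an unadjusted p under 0.05, and the background was 0% higher and 0% lower, with 417 of 13586 genes at an unadjusted p under 0.05. Differences ran from -0.16 to 0.15 log2 units. The groups did not overlap for 1 subunit, Ndufb5 (12.9 to 13.0 FPKM with vehicle and 13.5 to 16.2 with ASIV), against 13.1% of all genes. The interaction, which tests whether the ASIV difference in BTBR departs from that in C57, was called higher for 9 subunits and lower for 7. The background was 6.91% and 7.36%. An unadjusted p under 0.05 was reached by 28 of 35 subunits, against 4031 of 13586 genes. Its largest values were 1.34 ± 0.26 for Ndufa3 (adjusted p = 0.0069), 1.15 ± 0.20 for Ndufa1 (adjusted p = 0.0048), 0.95 ± 0.17 for Ndufb4 (adjusted p = 0.0051) and -0.88 ± 0.18 for Ndufb3 (adjusted p = 0.0087). These counts moved when single libraries were left out, from 5 to 12 higher and from 3 to 8 lower. The higher count was 5 without C57 vehicle replicate 2 or 3, C57 ASIV replicate 1 or 2, or BTBR ASIV replicate 2 or 3, and the lower count was 3 without C57 vehicle replicate 2 and 4 without C57 vehicle or C57 ASIV replicate 1.

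The summed FPKM of the 35 subunits was 1459 to 1552 with vehicle and 1405 to 1727 with ASIV in C57, and 1729 to 1859.5 with vehicle and 1462 to 1567 with ASIV in BTBR. The BTBR vehicle sums are the highest of the 4 groups, although 17 of the genes were lower there, and the lowest of them, 1729, is only narrowly above C57 ASIV replicate 3, at 1727. By role, the core summed to 264 ± 7.17 FPKM in C57 and 302 ± 19.9 in BTBR under vehicle, the matrix arm accessories to 333 ± 8.46 and 426 ± 27.3, the proximal to 526 ± 28.4 and 599 ± 28.2, and the distal to 388 ± 10.1 and 444 ± 15.3 (SD, n = 3). All these sums use FPKM as given. The all-gene median under vehicle shifted by -0.05 log2 units when FPKM was rescaled without mitochondrial genes. With TPM without mitochondrial genes it shifted by -0.11. The sums were not recomputed on either scale. The scatter of the subunits around their C57 levels was also measured. The SD of their log2 deviations from the C57 vehicle mean was 0.056 to 0.078 with vehicle and 0.11 to 0.14 with ASIV in C57, and 0.66 to 0.83 with vehicle and 0.24 to 0.44 with ASIV in BTBR. Over all genes tested it was 0.12 to 0.13, 0.18 to 0.25, 0.53 to 0.62 and 0.30 to 0.38. The subunits were thus less scattered than all genes tested in each of the 6 C57 libraries and more scattered in each of the 3 BTBR vehicle libraries. BTBR ASIV replicate 3, at 0.44, was the 1 library of its group above its all-gene value. The C57 vehicle libraries are part of the mean from which their deviations were taken. The set of all genes was not matched to the subunits for expression level, so part of these gaps may come from level, which was not tested.

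**Figure D4:**
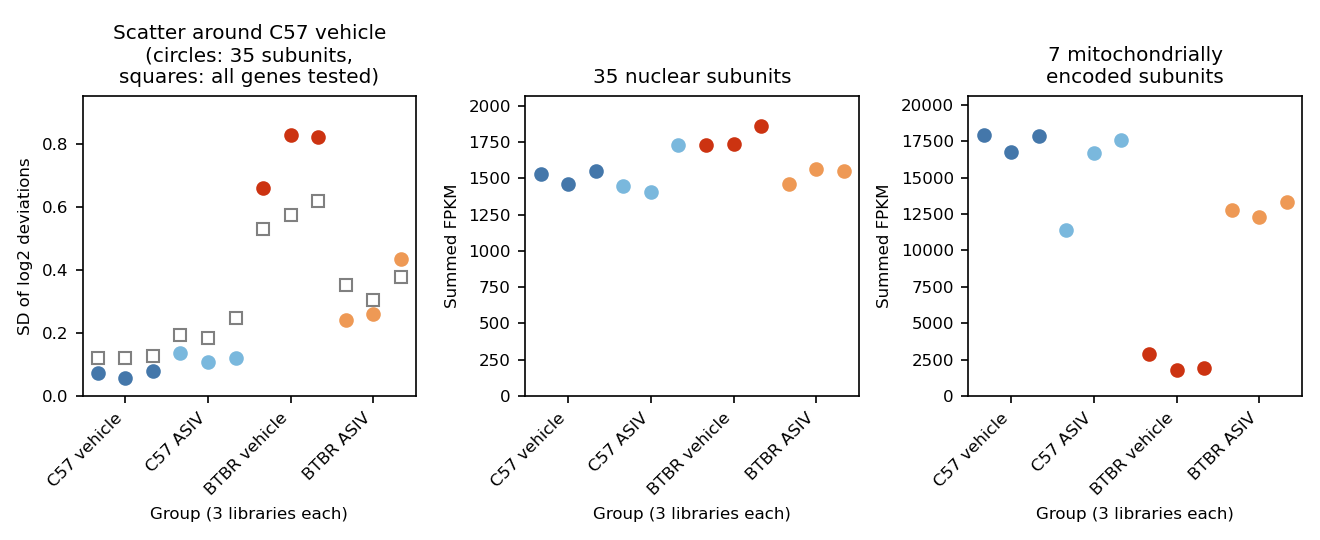
For each library, by group: the SD of log2(FPKM + 1) deviations from the C57 vehicle mean for the 35 subunits (circles) and all genes tested (squares), the summed FPKM of the 35 nuclear subunits, and that of the 7 mitochondrially encoded subunits. The circles lie below the squares in all 6 C57 libraries and above them in all 3 BTBR vehicle libraries, and the mitochondrially encoded sum is lowest in BTBR vehicle.

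The 7 subunits that mitochondrial DNA encodes, which form the membrane core, moved together. Under vehicle 7 of 7 were lower in BTBR, against 20.8% of all genes, by -1.29 (mt-Nd6) to -6.07 (mt-Nd4l) log2 units. With ASIV in BTBR 7 of 7 were higher, against 13.7% of all genes, by 1.28 to 3.94. The far end of both ranges was mt-Nd4l (SE 0.85), a gene at only 0.56 to 1.25 FPKM in BTBR vehicle. Within C57 ASIV it ran from 23.7 to 366 FPKM. The summed FPKM of the 7 was 17527 ± 641 with vehicle and 15224 ± 3349 with ASIV in C57, and 2188 ± 595 with vehicle and 12813 ± 518 with ASIV in BTBR (SD, n = 3). Relative to the 35 nuclear subunits the sum was 11.6-fold, 9.97-fold, 1.24-fold and 8.40-fold. Under ASIV, 1 of 7 was lower in BTBR (mt-Nd3, -2.80 ± 0.26, adjusted p = 0.00012), and none was called for ASIV in C57. C57 ASIV replicate 1 stood apart in its group, with a sum of 11394 FPKM. The scaling of each library was therefore varied. When each FPKM was divided by the sum over genes outside the mitochondrial genome (TPM without mitochondrial genes, an alternative chosen after seeing the data), the median of all genes shifted by -0.11 log2 units under vehicle and by 0.12 for ASIV in BTBR, and the calls over all genes went from 3026 higher and 2832 lower to 2026 and 3703, and from 1864 and 2090 to 3026 and 1120. The subunit counts then were 12 higher and 17 lower under vehicle and 16 higher and 9 lower for ASIV in BTBR, with no called subunit changing sign.

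Of 17 assembly factors, proteins that build complex I but are not part of it, 8 were higher and 1 lower in BTBR under vehicle, and 2 were higher and 6 lower with ASIV in BTBR. Together 52.9% were called under vehicle, against 43.1% of all genes and 52.2% of genes with FPKM of at least 5, and 47.1% with ASIV in BTBR, against 29.1% and 38.1%. None was called between the strains under ASIV or for ASIV in C57. The largest differences under vehicle were those of Ndufaf8 (1.00 ± 0.11, adjusted p = 2.96e-05), a twin-cysteine protein that partners Ndufaf5, of Timmdc1 (0.67 ± 0.11, adjusted p = 0.00051) and Tmem126b (0.51 ± 0.10, adjusted p = 0.0018), which act on the membrane arm, and of Foxred1 (0.47 ± 0.09, adjusted p = 0.0018). Tmem186 was the factor that was lower (-0.36 ± 0.08, adjusted p = 0.0038). With ASIV in BTBR, Timmdc1 fell by 0.79 ± 0.11 (adjusted p = 0.00043), Ndufaf8 by 0.71 ± 0.11 (adjusted p = 0.00063) and Tmem126b by 0.46 ± 0.10 (adjusted p = 0.0059), and Tmem186 rose by 0.45 ± 0.08 (adjusted p = 0.0016).

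The 35 genes lie on 15 chromosomes. The 5 on chromosome 17 divided into 1 higher, 3 lower and 1 not called, and Ndufa1 and Ndufb11, both on the X chromosome, differed in opposite directions. The subunits called higher had a median transcript length of 868 bases and those called lower one of 680, with median GC of 54.1% and 52.1%. Across the 35 genes, which are not independent, Spearman's rho with the strain difference under vehicle was 0.16 for transcript length, 0.17 for GC and -0.30 for the number of annotated transcripts. Over all protein-coding genes tested the values were -0.10, 0.13 and 0.02. Median C57 FPKM was 57.8 for subunits called higher and 32.2 for those called lower, with a rho of 0.28, against -0.02 over all protein-coding genes. Levels between genes depend on the length used: for Ndufb7 the merged exons are 7.26 times as long as the main transcript, which lowers its FPKM. Besides Ndufa12, Ndufs3 has a near-identical copy in the table (Gm12251, 98.6% identity over 75.7% of the transcript, 1.05 log2 units higher in BTBR under vehicle), so its value is uncertain too. Ndufa11, Ndufa7, Ndufb11, Ndufb7 and Ndufs6 have copies at 90.3% to 96.9% identity that were not used here. Whether reads were counted by strand was not stated in the labels, so overlap with neighbours on the opposite strand also bears on Ndufb11 (Rbm10, 12.9% of exon length), Ndufb5 (Mrpl47, 12.3%) and Ndufa2 (Tmco6, 11.5%).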

How the data were processed

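RNA of the mPFC was measured in 12 libraries, 3 for each strain and treatment, grouped by the sample titles. The deposited table holds FPKM per gene, as computed by the authors, with reads aligned to mm10 with HISAT2 2.0.5 per the submitters' processing notes. Counter, annotation and strand setting: not given in the sources used here. Symbols and positions came from GENCODE M21 (mm10), which matched 17273 of 17283 identifiers. From FPKM and exon length, 97.6% to 98.0% of values under 50 fragments were whole within 0.02, which gave the depth.

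The 13586 genes that reached 1 FPKM in at least 3 libraries were fitted as log2(FPKM + 1) with limma 3.58.1 in R 4.3.3 (4 group means, 8 residual degrees of freedom, a robust eBayes with a mean-variance trend), with Benjamini-Hochberg adjustment over all of them and a threshold of 0.05. The 5 comparisons were BTBR against C57 under each treatment, ASIV against vehicle within each strain, and the interaction. A fold or difference is on the log2(value + 1) scale and understates change in low genes such as Ndufb2 and Ndufab1. Copies are transcripts with at least 90% identity over at least 50% of a subunit (blastn 2.17.0). Promoters are those of RefSeq (GRCm38.p6), and motif letters were searched on both strands.

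All 35 subunits are accounted for: by rule, full values go to up to 10 per direction and comparison with the largest called difference, and up to 4 genes are named from each related list. The members, lists and tests were chosen with earlier results of these data known. Alternatives were other scalings, a pseudocount of 0.1, other filters, voom on recovered fragments, fewer groups, each library left out, and the replicate number as a block.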

Additional observations from a re-analysis of the deposited data

Results flagged for a closer look

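For 16 of the 35 subunits the difference between ASIV and vehicle was not the same in the 2 strains by the interaction term of the limma model (adjusted p under 0.05). That is 45.7% of the subunits, against 14.3% of all genes tested. The values below are the ASIV difference in BTBR minus that in C57, in log2 units. It was positive for Ndufa3 (1.34), Ndufa1 (1.15), Ndufb4 (0.95), Ndufa6 (0.77), Ndufa10 (0.74), Ndufb6 (0.56), Ndufa7 (0.54), Ndufb10 (0.48) and Ndufc1 (0.45). It was negative for Ndufb3 (-0.88), Ndufa5 (-0.73), Ndufc2 (-0.70), Ndufb7 (-0.67), Ndufv1 (-0.65), Ndufa2 (-0.64) and Ndufa8 (-0.46). In C57 alone the ASIV difference of these genes lay between -0.11 and 0.13. With 1 library left out, the calls of Ndufa2, Ndufa5, Ndufa7, Ndufa8, Ndufb10, Ndufb6, Ndufc1 and Ndufc2 were lost in at least 1 setting (adjusted p up to 0.124, for Ndufa8 without C57 vehicle replicate 2), and those of the other 8 were kept in all of them.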

How the results depend on the processing

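Counts of called subunits stayed within 1.5 times the reported ones under every alternative for strain under vehicle, ASIV in BTBR and ASIV in C57. The main fit shares 1 spread over 4 groups, whose mean variance ran from 0.0226 (C57 vehicle) to 0.0642 (BTBR vehicle). With limma on only the 2 groups compared, ASIV in BTBR gave 11 higher and 9 lower subunits, and 1111 and 1147 over all genes. Ndufb8, Ndufb2, Ndufs8, Ndufb11, Ndufs1 and Ndufs3 then lost that call (adjusted p from 0.0609 to 0.146). With single libraries left out they ran from 12 to 14 higher and 14 to 17 lower under vehicle, from 10 to 15 higher and 9 to 12 lower for ASIV in BTBR, and stayed at 0 in C57. The interaction counts, 9 and 7, ran from 5 to 12 higher and from 3 to 8 lower: 5 were higher without C57 vehicle 2 or 3, C57 ASIV 1 or 2, or BTBR ASIV 2 or 3, 3 were lower without C57 vehicle 2, and 4 without C57 vehicle 1 or C57 ASIV 1. For strain under ASIV they ran from 0 to 1 higher (1 without BTBR ASIV 1) and from 0 to 2 lower (2 without C57 ASIV 1). With TPM computed without mitochondrial genes, chosen after seeing the data, the interaction count was 14 higher and 6 lower. That scaling moved the share of higher among all calls from 51.7% to 35.4% under vehicle, from 47.1% to 73.0% for ASIV in BTBR and from 48.4% to 68.9% for the interaction, which was 58.7% when FPKM was rescaled without mitochondrial genes. The causes were not tested.

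No value of a called subunit changed sign in any alternative. Calls were lost in 22 of 712 values under vehicle, 45 of 597 for ASIV in BTBR and 59 of 352 for the interaction, in the first 2 most often for Ndufs3, Ndufs1, Ndufb8, Ndufb11 and Ndufs8, and in the interaction for Ndufa8 and Ndufb10. Without BTBR ASIV 3 or BTBR vehicle 1, Ndufs8 had ASIV differences of 0.28 and 0.26 (adjusted p = 0.10 and 0.091), and Ndufs3 lost its strain call without C57 vehicle 3 (0.22, adjusted p = 0.13) among 8 such libraries. Deviations of same-numbered libraries from their group means had correlations from -0.17 to 0.28, and those of other pairs from -0.37 to 0.225. With 3 libraries per group these values cannot show whether a number marks a shared litter, batch or day. The labels do not say what the numbers mark. With a replicate block the counts were 13 and 17 under vehicle, 15 and 12 for ASIV in BTBR, 9 and 10 for the interaction and 0 elsewhere, and Ndufs3 lost its strain call (0.25, adjusted p = 0.0564). Having 3 libraries per group limits precision, and FPKM cannot show whether total RNA per cell changed.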
